A study of Mus musculus with 16 samples.

Results

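The cytosolic ribosomal proteins are the protein components of the 60S and 40S subunits of the cytoplasmic ribosome. Their genes were taken by symbol, as Rpl or Rps genes with a number together with *Rplp0*, *Rplp1*, *Rplp2* and *Rpsa*, and 85 of the 24411 genes in the files met this rule, 52 of the large subunit and 33 of the small one. RNA was measured by sequencing of polyadenylated RNA from mouse liver, with 4 libraries in each of 4 groups. The EtOH+MBV mice received a diet with ethanol after the NIAAA model, which joins chronic and binge drinking, and matrix-bound nanovesicles (MBV), small vesicles held in extracellular matrix. The EtOH mice received the same diet and vehicle, the PF+MBV mice were pair-fed controls given MBV, and the PF mice were pair-fed controls given vehicle. The labels used here do not give strain, sex, age, dose, the source of the vesicles or the time of treatment, and none says whether the 4 libraries of a group came from separate mice, so p-values measure the spread between these libraries, which may be technical.

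Each ribosome carries 1 copy of nearly every one of these proteins, and the stalk proteins *Rplp1* and *Rplp2* are the known exception, held in more than a single copy on *Rplp0*. The mRNAs belong to the TOP class, which begins with a run of pyrimidines at the 5′ end and whose translation is held back through LARP1 when mTORC1 is inactive. The level of such an mRNA is therefore a separate quantity from its translation, and only the level was measured here. In liver, ribosome content is known to follow feeding and growth.

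Promoters of these genes are shown around the start, where the pyrimidine run of the class lies, and a selection follows because these genes include the largest differences described below and the ones that stood apart from them. RefSeq promoters on GRCm38.p6 were at hand for 64 of the 85 genes. Each line gives 15 bases before and 15 bases from the RefSeq start, read 5′ to 3′ on the strand of the gene, with the longest run of C or T in capitals.
Rpl35 (chr2:39005117-39005146, minus strand): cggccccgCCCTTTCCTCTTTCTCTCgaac
Rplp2 (chr7:141447636-141447665, plus strand): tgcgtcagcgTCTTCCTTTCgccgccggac
Rps10 (chr17:27635230-27635259, minus strand): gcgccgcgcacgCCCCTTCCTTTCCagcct
Rpl13 (chr8:123102335-123102364, plus strand): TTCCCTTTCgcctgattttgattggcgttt
Rpl12 (chr2:32961697-32961726, plus strand): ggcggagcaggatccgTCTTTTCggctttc
Rpsa (chr9:120127751-120127780, plus strand): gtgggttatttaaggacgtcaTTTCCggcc
Rpl22l1 (chr3:28805493-28805522, plus strand): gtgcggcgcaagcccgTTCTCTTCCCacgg
Rpl22 (chr4:152325711-152325740, plus strand): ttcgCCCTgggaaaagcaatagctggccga
Rpl7l1 (chr17:46782642-46782671, minus strand): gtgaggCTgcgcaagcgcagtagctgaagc
Rpl36al (chr12:69184053-69184082, minus strand): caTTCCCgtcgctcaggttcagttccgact
A run of at least 8 bases, each C or T on the strand of the gene, lay within 25 bases of the start in 33 of the 64 promoters (51.6%), against 22.1% of 17224 genes with a promoter. The 7-letter motif ACTTCCG, a sequence of the kind that ETS factors are known to bind, was found on either strand of the 300 bases in 22 of the 64 (34.4%), against 9.44% of all. In the lines above, *Rpl35*, *Rps10*, *Rplp2*, *Rpl13* and *Rpl22l1* carry such a run, while *Rpl12*, *Rpsa*, *Rpl22*, *Rpl36al* and *Rpl7l1* do not, so genes with and without the run stand among both the largest rises between EtOH and PF livers and the genes that did not pass. The run and the motif can lie in 1 promoter, and a match describes letters only.

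Of the 85 genes, 78 passed the filter on low counts and were tested, 46 of the large subunit and 32 of the small one. The 7 others were *Rpl26* and *Rpl10l*, with 0 reads in all 16 libraries, *Rpl39l* with 0 to 1, *Rps27* with 0 to 4, *Rpl30* with 0 to 5, *Rpl3l* with 0 to 7 and *Rpl34* with 2 to 14. *Rpl26*, *Rpl30*, *Rps27* and *Rpl34* are ordinary components of the cytoplasmic ribosome, and such low counts do not show that a gene is silent. The deposited tables tally reads that map to several places apart from the genes, and the share of 50-base stretches of their transcripts that also occur in transcripts of other genes was 71.3% for *Rpl26*, 47.8% for *Rpl30*, 98.6% for *Rps27* and 50.6% for *Rpl34*. Among the tested genes that share ran from 0% to 92.4% with a median of 55.5%, and its part in the low counts was not tested. Reads shared with pseudogene copies make the level of any gene of this family uncertain.

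The libraries held 15271344 to 20493181 reads in genes, and hepatocyte identity was clear, with *Alb*, the gene of serum albumin, at 62500 to 98000 CPM. Levels are given in CPM, the reads of a gene per 1000000 gene reads of the library after TMM adjustment of library sizes (factors 0.863 to 1.27). Reads that map to several places made up 7.23% ± 0.434 of a library in EtOH+MBV, 6.75% ± 0.921 in EtOH, 5.14% ± 0.16 in PF+MBV and 5.08% ± 0.345 in PF livers (SD, n = 4 each), so this share moved with the diet as the ribosomal protein genes did, and its part in the results was not tested. Unmapped reads also differed with the diet, at 12.6% ± 0.901 in EtOH+MBV and 14.9% ± 0.742 in PF+MBV livers. They were 12.7% ± 0.897 in EtOH and 18.3% ± 1.88 in PF livers (SD, n = 4 each). Neither diet comparison had an overlap of libraries in this share, and its part in the results was not tested. The libraries EtOH 1 and EtOH+MBV 1 stood apart in an earlier description of these data. Without both, 65 genes of this family rose between EtOH and PF livers and 53 between EtOH+MBV and PF+MBV livers, against the 51 and 38 described below.

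All ribosomal protein genes together took 1.62%, 1.46%, 1.28% and 1.32% of gene reads in the EtOH livers, against 1.1%, 1.21%, 1.15% and 1.15% in the PF livers. Every EtOH library lay above every PF library. In the EtOH+MBV livers the share was 1.26%, 1.24%, 1.17% and 1.25%, against 1.15%, 1.15%, 1.13% and 1.15% in the PF+MBV livers, again with no overlap. The share averaged 1.42% ± 0.154 in EtOH and 1.15% ± 0.045 in PF livers, and 1.23% ± 0.0408 in EtOH+MBV and 1.14% ± 0.01 in PF+MBV livers (SD, n = 4 each). EtOH 1 had the highest raw share but the lowest scaled level of the 4 EtOH libraries, with a TMM factor of 1.27. In bulk liver, fewer cells of a type and less RNA per cell cannot be told apart.

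After scaling, the median log2 level of the 78 tested genes relative to the PF mean was 0.15, 0.33, 0.37 and 0.23 in the EtOH livers, against -0.07, 0.01, 0.02 and 0.01 in the PF livers. It was 0.13, 0.21, 0.09 and 0.22 in the EtOH+MBV livers, against -0.07, -0.06, -0.03 and -0.06 in the PF+MBV livers. All 8 libraries of the ethanol diet lay above all 8 libraries of the pair-fed diet.

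**Figure D1:**
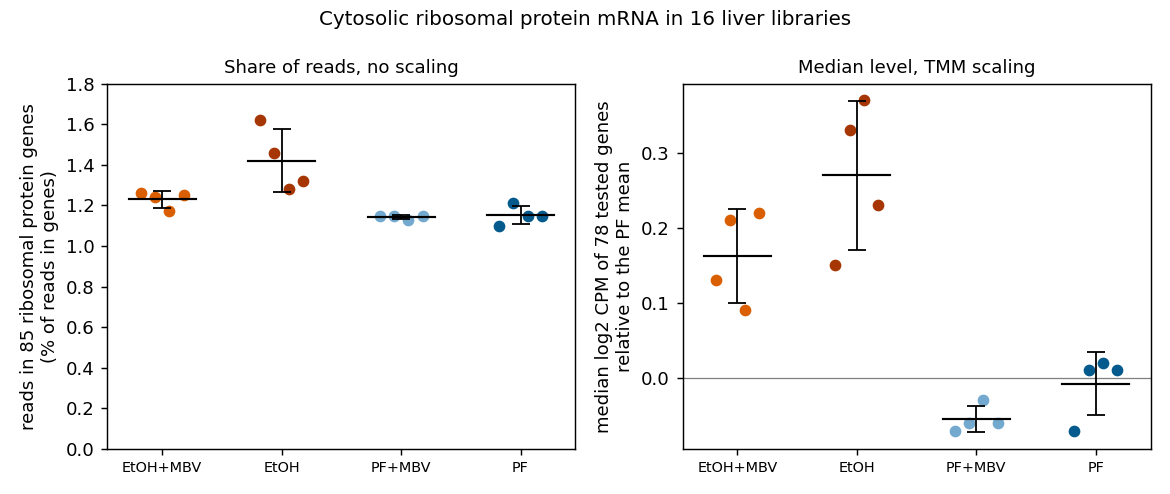
Left, share of gene reads in the 85 ribosomal protein genes per library; right, median log2 CPM of the 78 tested genes relative to the PF mean. Points are libraries, lines the mean and bars the SD of 4 libraries; every ethanol library lies above every pair-fed library on the right, and the EtOH libraries reach 0.37.

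The first comparison asks what the ethanol diet changed in mice given vehicle. Ribosomal protein mRNAs were higher in the EtOH livers than in the PF livers, by a small amount that many genes shared. Of 78 tested genes, 51 rose and 0 fell (edgeR's quasi-likelihood test, adjusted p under 0.05 over all 12901 tested genes), or 65.4%, against 20.4% of all genes that rose and 19.5% that fell. The median log2 fold change was 0.27, a fold of 1.2, against 0.01 over all tested genes, and 74 of the 78 values were positive. Both subunits took part, with 31 of 46 genes of the large subunit and 20 of 32 of the small one, each with a median of 0.27. Of the 78, 42 had all EtOH libraries above all PF libraries, against 15.9% of all genes.

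No gene had a negative difference with an unadjusted p under 0.05, and DESeq2 called 60 higher and 0 lower. The count of 51 moved with the libraries in the fit. It was 21 when the EtOH and PF libraries were fitted alone, 33 without PF 1 and 63 without EtOH 1, and the median stayed between 0.23 and 0.30 when any 1 library was left out.

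The largest rises came from proteins of several places in the ribosome. *Rpsa*, the 40S protein also known as the laminin receptor (chromosome 9, 120127689 to 120132369), had 418, 501, 509 and 454 CPM in the EtOH livers, against 292, 310.4, 322 and 332 CPM in the PF livers. *Rpl12* had 166, 161, 149 and 153 CPM in the EtOH livers, against 98.7, 108, 111 and 102 CPM in the PF livers, and this 60S protein sits at the base of the stalk (chromosome 2, 32961559 to 32965345). In both genes the lowest EtOH library exceeded the highest PF library, with log2 fold changes of 0.58 ± 0.09 for *Rpsa* (adjusted p = 0.000178) and 0.58 ± 0.08 for *Rpl12* (adjusted p = 4.54e-05). Beside log2 fold changes, log2 differences and interactions, ± gives a standard error derived from the test over all 16 libraries, not an SD.

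*Rpl13* had 219, 274, 267 and 232 CPM in the EtOH livers, against 166, 169.5, 178 and 176 CPM in the PF livers. Every EtOH library lay above every PF library, and this 60S gene had a log2 fold change of 0.53 ± 0.09 (adjusted p = 0.000297).

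The stalk, which recruits the elongation factors to the ribosome, rose in all 3 of its genes. *Rplp0* had 438, 426, 389 and 364 CPM in the EtOH livers, against 286, 346, 320.4 and 312 CPM in the PF livers. *Rplp0* is often used as a reference gene in quantitative PCR, and it had a log2 fold change of 0.36 ± 0.09 between these diets (adjusted p = 0.00744). *Rplp2* had 94.6, 106, 108 and 91.6 CPM in the EtOH livers, against 67.9, 60.5, 82.1 and 77.6 CPM in the PF livers, a log2 fold change of 0.47 ± 0.10 (adjusted p = 0.0014). For *Rplp1* the log2 fold change was 0.27 ± 0.10 (adjusted p = 0.0392).

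*Rpl3*, a protein close to the peptidyl transferase centre, had a log2 fold change of 0.39 ± 0.11 (adjusted p = 0.00919), and *Rpl35*, which lies at the exit tunnel, of 0.42 ± 0.08 (adjusted p = 0.0007). *Rpl41*, the smallest protein of the ribosome, had 0.37 ± 0.09 (adjusted p = 0.00558) and *Rps15a* 0.37 ± 0.08 (adjusted p = 0.00219). *Rps4x*, whose gene lies on the X chromosome, had 0.25 ± 0.08 (adjusted p = 0.0296).

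The 27 tested genes that did not pass included every tested paralogue of a ribosomal protein. *Rpl22* had 82.9, 99.4, 95.3 and 89.9 CPM in the EtOH livers, against 97.3, 98, 104 and 110 CPM in the PF livers, a log2 difference of -0.15 ± 0.09 (adjusted p = 0.179). The log2 difference was -0.08 ± 0.09 for *Rpl36al*, 0.00 ± 0.07 for *Rps27l*, 0.11 ± 0.09 for *Rpl22l1* and -0.21 ± 0.11 for *Rpl7l1*, with adjusted p of 0.456, 0.988, 0.303 and 0.125 in that order. *Rps27l* is a known target of p53. Among the ordinary members, *Rpl7* had 0.10 ± 0.09 (adjusted p = 0.413) and *Rpl10* 0.11 ± 0.09 (adjusted p = 0.333). *Rps4l*, with few reads, had 0.37 ± 0.25 (adjusted p = 0.259).

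**Figure D2:**
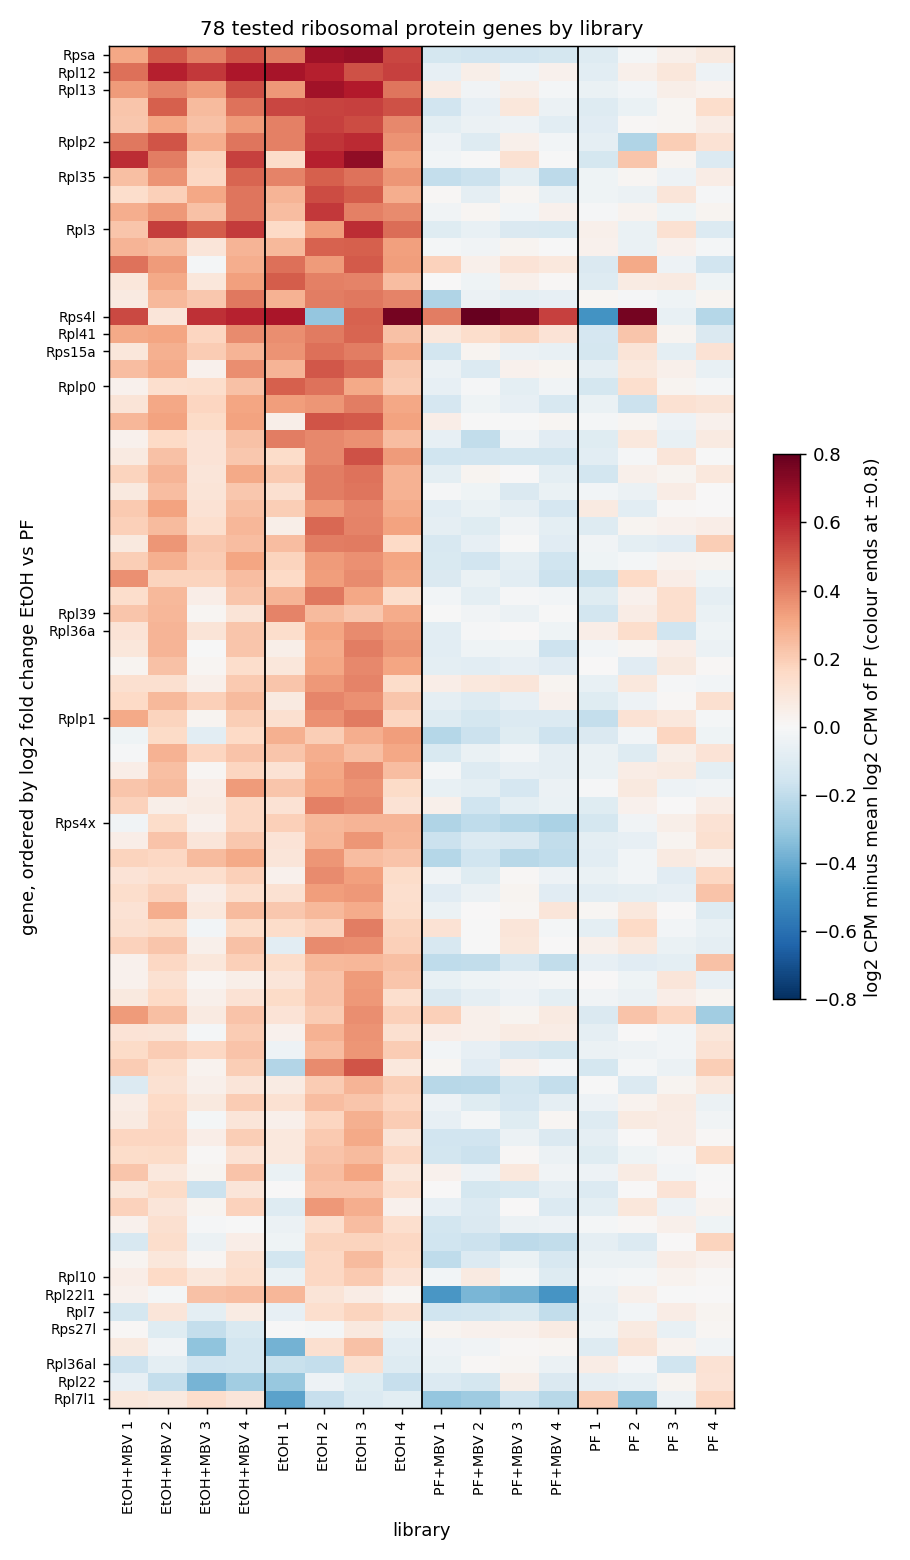
Log2 CPM of the 78 tested genes (rows, ordered by log2 fold change of EtOH against PF) in the 16 libraries, relative to the mean log2 CPM of the PF libraries, with colours ending at 0.8 on either side and names beside some of the rows. Most rows are redder in the ethanol libraries; *Rpl22l1* is bluest in the 4 PF+MBV libraries and *Rps4l* varies most among libraries.

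The share of genes that rose was close with and without these promoter letters, with no test made. Of tested genes with a RefSeq promoter, 20 of 30 with the pyrimidine run rose (median log2 fold change 0.28) and 18 of 28 without it (median 0.25). With the ACTTCCG motif 13 of 21 rose (median 0.25), and without it 25 of 37 (median 0.26). Across members the log2 fold change had a Spearman rho of -0.05 with mean CPM, -0.03 with the share of 50-base stretches found in other genes and -0.07 with coding length. For the diet difference in mice given MBV, described next, the values were 0.13, 0.04 and 0.29 in the same order, all as descriptions over genes of the same libraries. The genes are short, with a median transcript of 832.5 bases, and 644 other genes with transcripts of up to 1000 bases had a median of -0.08, with 91 higher and 131 lower.

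The same diets were also compared in mice given MBV, where no library is shared with the first comparison. Both tests use the same estimate of spread per gene, made over all 16 libraries, so they are not fully separate. Ribosomal protein mRNAs were again higher in the EtOH+MBV livers than in the PF+MBV livers. Of 78 genes, 38 rose and 0 fell (edgeR's quasi-likelihood test, adjusted p under 0.05), or 48.7%, against 19.2% of all genes that rose and 16.7% that fell. The median log2 fold change was 0.22, against -0.01 over all genes, and 73 of 78 values were positive. All EtOH+MBV libraries lay above all PF+MBV libraries in 59 genes, against 19.2% of all genes. The large subunit had 21 of 46 genes higher and the small one 17 of 32, with medians of 0.21 and 0.23.

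This count depended on how libraries were scaled. Scaled by total gene reads alone, 7 of the 78 genes rose and 2 fell, *Rpl22* and *Rpl36al*, while the median of all genes moved to -0.15; relative to that median the ribosomal protein genes stood 0.23 higher under both scalings. An unadjusted p under 0.05 went with a negative difference in 0 genes, and DESeq2 called 50 higher and 0 lower. The count was 49 when the EtOH+MBV and PF+MBV libraries were fitted alone, 23 without EtOH+MBV 4 and 25 without PF+MBV 1.

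*Rpl12* and *Rpsa*, which led in mice given vehicle, also had the largest values in mice given MBV. *Rpl12* had 142, 161, 155 and 164 CPM in the EtOH+MBV livers, against 100.1, 108, 103 and 107 CPM in the PF+MBV livers. *Rpsa* had 388, 439.8, 415 and 444 CPM in the EtOH+MBV livers, against 284, 282, 283 and 284 CPM in the PF+MBV livers. In both genes the lowest EtOH+MBV library lay above the highest PF+MBV library, and the log2 fold changes were 0.57 ± 0.08 (adjusted p = 9.29e-05) and 0.57 ± 0.09 (adjusted p = 0.000291). *Rpl3* had 289, 364, 348 and 364 CPM in the EtOH+MBV livers, against 232, 238, 228 and 228 CPM in the PF+MBV livers, a log2 fold change of 0.56 ± 0.11 (adjusted p = 0.000989). *Rpl35* had 0.47 ± 0.08 (adjusted p = 0.000356) and *Rplp2* 0.44 ± 0.10 (adjusted p = 0.00272). Of the other stalk genes, *Rplp1* had 0.30 ± 0.10 (adjusted p = 0.0289, edgeR's quasi-likelihood test). *Rplp0* had 0.18 ± 0.09 (adjusted p = 0.143, same test) and did not pass.

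Both diet comparisons called 32 genes, which are 62.7% of the 51 genes of the vehicle mice and 84.2% of the 38 genes of the MBV mice. The log2 fold changes of the 78 genes had the same sign in 75 cases, with a Pearson r of 0.58 and a Spearman rho of 0.56 across genes, against a Pearson r of 0.65 over all genes. Genes of 1 family in the same libraries are not independent, so these are descriptions.

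**Figure D3:**
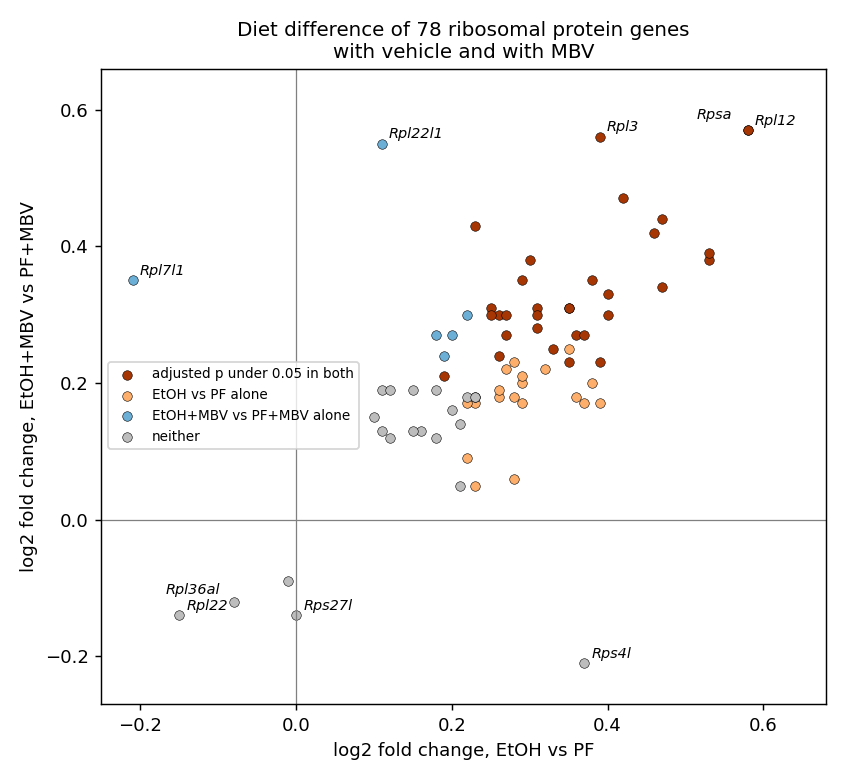
Log2 fold change of EtOH against PF (x) and of EtOH+MBV against PF+MBV (y) for the 78 tested genes, coloured by which of the tests gave an adjusted p under 0.05. *Rpl12* and *Rpsa* lie at the upper right (0.58 and 0.57 each), *Rpl22l1* lies above the cloud, *Rpl7l1* to its upper left, and *Rps4l* below it.

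The third comparison asks what MBV changed in mice on the ethanol diet. No gene of the 78 passed between EtOH+MBV and EtOH livers, with 0 higher and 0 lower, against 1.24% and 1.45% of all genes (edgeR's quasi-likelihood test). Unadjusted p was under 0.05 for 7 genes, and DESeq2 called 0 higher and 2 lower. The median log2 fold change was -0.10, against 0.01 over all genes, and 73 of the 78 values were negative. In 6 of the 78 genes all EtOH+MBV libraries lay below all EtOH libraries, against 3.53% of all genes. Markers of dividing cells moved in this comparison too, with 3 of 6 lower and a summed level of 20 to 24.1 CPM in EtOH+MBV and 22.9 to 132 CPM in EtOH livers, and their part in the result was not tested. *Rplp0* had 323, 346, 348 and 371 CPM in the EtOH+MBV livers, against 438, 426, 389 and 364 CPM in the EtOH livers, a log2 difference of -0.22 ± 0.09 (adjusted p = 0.188).

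In pair-fed mice, 1 of the 78 genes was lower with MBV and 0 were higher, against 1.03% and 0.752% of all genes (edgeR's quasi-likelihood test), with a median log2 fold change of -0.06 and 63 of 78 values negative. In 16 of the 78 genes all PF+MBV libraries lay below all PF libraries, against 7.26% of all genes. Unadjusted p was under 0.05 for 6 genes with a negative and 1 with a positive difference, and DESeq2 called 2 lower. The gene was *Rpl22l1* (chromosome 3, 28805436 to 28807424), the paralogue of *Rpl22*, an RNA-binding protein of the large subunit. *Rpl22l1* had 20.6, 22.1, 21.8 and 20.4 CPM in the PF+MBV livers, against 27.5, 29.2, 28.4 and 28.4 CPM in the PF livers. Every PF+MBV library lay below every PF library, and the log2 fold change was -0.42 ± 0.09 (adjusted p = 0.0221). *Rpl22l1* had 29, 28.1, 33.4 and 33.6 CPM in the EtOH+MBV livers, against 34.1, 30.4, 29.5 and 28.7 CPM in the EtOH livers, and these groups overlap. Between EtOH+MBV and PF+MBV livers the log2 fold change of *Rpl22l1* was 0.55 ± 0.09 (adjusted p = 0.000223). The difference of the MBV effects between diets (the interaction) was 0.43 ± 0.12 (adjusted p = 0.0535), which did not pass. It passed with DESeq2 (0.43), without EtOH 1 (0.50), without EtOH+MBV 1 (0.47), without EtOH+MBV 2 (0.49) and without EtOH 1 and EtOH+MBV 1 together (0.52). The call in pair-fed mice was lost without any 1 of the PF+MBV libraries, without PF 1, PF 3 or PF 4, and with scaling by total reads (-0.36), while the values without 1 library ran from -0.44 to -0.40.

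The interaction was past the limit for *Rpl7l1* alone among the 78 genes, 1 higher and 0 lower, against 2.02% and 2.09% of all genes. Unadjusted p was under 0.05 for 2 genes, both positive, and DESeq2 called 2. *Rpl7l1* (chromosome 17, 46773907 to 46782672) encodes a protein related to *Rpl7* that is known for ribosome assembly. *Rpl7l1* had 59.7, 59.2, 61.9 and 59.9 CPM in the EtOH+MBV livers, against 41.7, 49.2, 51.9 and 52.9 CPM in the EtOH livers. *Rpl7l1* had 45.2, 45.9, 50.05 and 48 CPM in the PF+MBV livers, against 64.1, 45.1, 54.3 and 62.8 CPM in the PF livers. The libraries of EtOH+MBV lay above all those of EtOH, while PF+MBV and PF overlapped. The interaction was 0.56 ± 0.15 (adjusted p = 0.0469, edgeR's quasi-likelihood test), close to the limit. Leaving out 1 library at a time ended that call in 13 of 16 cases, all but PF 2, EtOH 3 and EtOH 4, with values of 0.50 to 0.65. The call also ended with scaling by total reads, no filter, limma voom or a replicate block, and without EtOH 1 and EtOH+MBV 1 together.

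**Figure D4:**
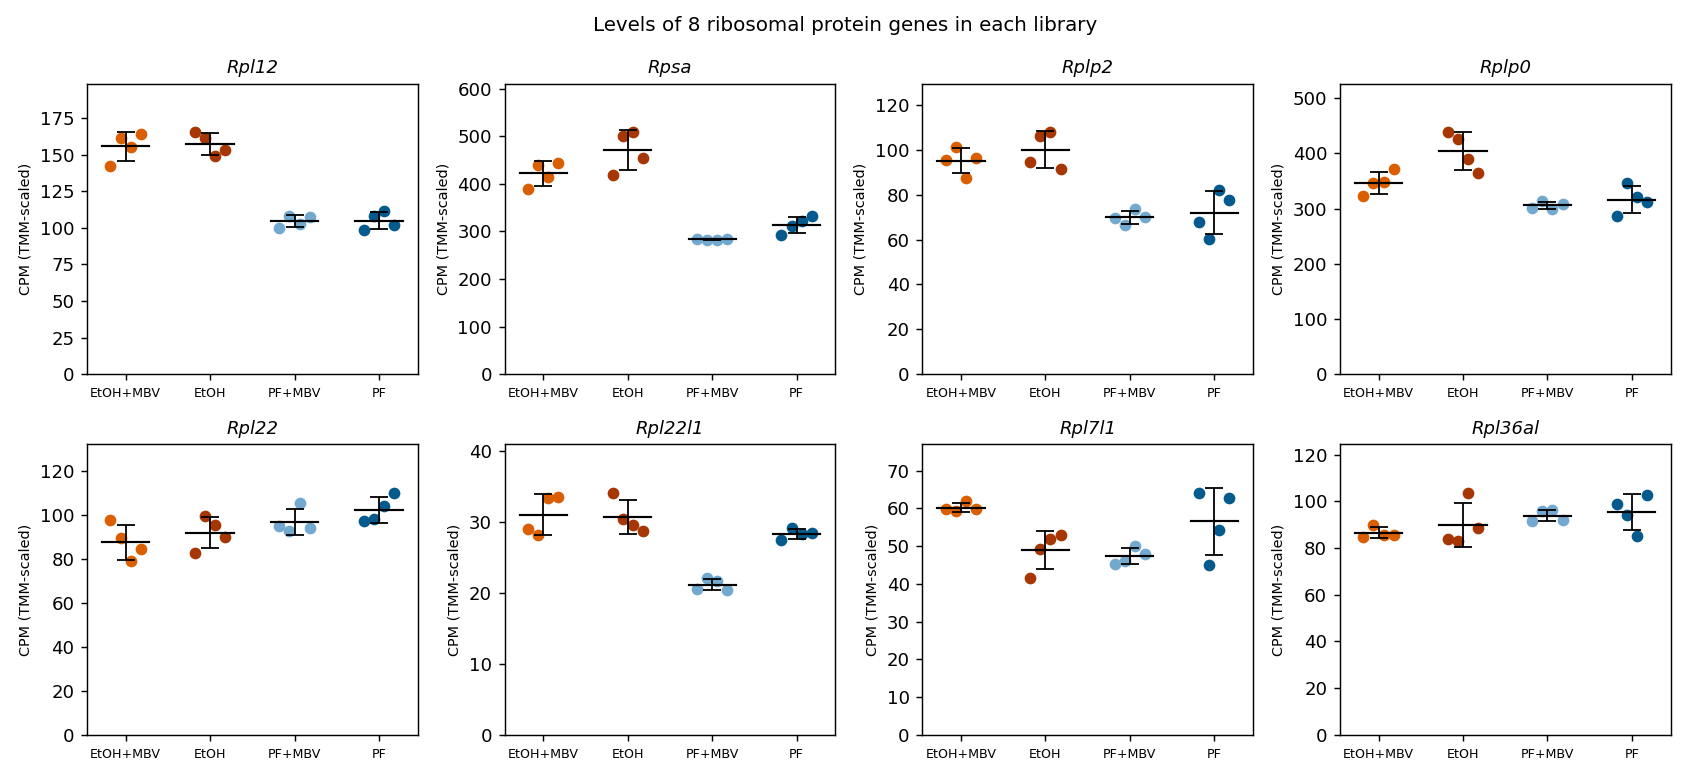
CPM of 8 genes in each library (points), with the mean (line) and SD (bar) of 4 libraries per group. The means of *Rpl12*, *Rpsa*, *Rplp2* and *Rplp0* are higher in both ethanol groups, but *Rplp0* did not pass between EtOH+MBV and PF+MBV livers. *Rpl22l1* is lowest in PF+MBV, and the means of *Rpl22* and *Rpl36al* are lower in both ethanol groups.

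Ratios of reads of a paralogue to reads of the gene it resembles need no scaling between libraries. The ratio of *Rpl22l1* to *Rpl22* was 0.337 ± 0.0505 in EtOH and 0.278 ± 0.0164 in PF livers, and 0.358 ± 0.062 in EtOH+MBV and 0.22 ± 0.0134 in PF+MBV livers (SD, n = 4 each). The ratio of *Rpl36al* to *Rpl36a* was 1.36 ± 0.111 in EtOH and 1.77 ± 0.15 in PF livers, and 1.42 ± 0.0552 in EtOH+MBV and 1.78 ± 0.0255 in PF+MBV livers (SD, n = 4 each). Each of these 4 diet differences had p = 0.0286 in a two-sided exact permutation test of 4 against 4 libraries, the smallest it can give, and an adjusted p of 0.0571 over the 16 tests made on 4 pairs. None of the 16 passed after adjustment, and 8 were at that smallest p. The other pairs differed in sign between the diet comparisons. The log2 difference of the ratio of *Rpl7l1* to *Rpl7* was -0.30 between EtOH and PF livers and 0.21 between EtOH+MBV and PF+MBV livers. For *Rps4l* to *Rps4x* it was 0.15 and -0.52 in the same order.

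Levels between genes were compared as CPM per kilobase of coding sequence. By this measure *Rpl41* had the highest mean level over the 16 libraries, 2295 CPM per kilobase, followed by *Rplp1* at 688.5 and *Rpl10* at 611.4. Reads were counted over whole transcripts, so a gene with a short coding part ranks higher by this measure. *Rpl41* has 75 coding bases in a transcript of 544, against 342 of 499 for *Rplp1* and 642 of 827 for *Rpl10*. The lowest were *Rps15a* at 156.7, *Rpl22l1* at 76.01 and *Rpl7l1* at 72.16. By coding length, the paralogues *Rpl22l1* and *Rpl7l1* lay below every canonical gene that was tested. *Rps4l* has no coding length in the annotation and was left out of this order. Transcript length could give another order, which was not made. The transcript of *Rps15a* has 5130 bases, with 390 of them coding, and that of *Rpl22l1* has 552, with 366 coding.

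Other groups of the translation machinery are read against the same shares of all genes, 20.4% higher and 19.5% lower between EtOH and PF livers. Of 22 genes for ribosome-associated proteins and translation factors of the TOP class, 2 rose (9.09%) and 2 fell between EtOH and PF livers (median log2 fold change 0.02). *Gnb2l1*, the Rack1 protein of the 40S subunit, had 0.29 ± 0.09 (adjusted p = 0.0131) and *Eef1b2*, an elongation factor subunit, 0.24 ± 0.08 (adjusted p = 0.0364). The falls were *Eif4b*, an initiation factor, at -0.64 ± 0.12 (adjusted p = 0.000714), and *Naca* at -0.26 ± 0.09 (adjusted p = 0.025, edgeR's quasi-likelihood test). Of 77 genes for mitochondrial ribosomal proteins, which serve a separate ribosome, 4 rose (5.19%) and 12 fell (15.6%, median -0.11), with *Mrpl36* at -0.70 ± 0.12 (adjusted p = 0.000394). Of 22 genes for ribosomal protein chaperones and surveillance, 5 rose (22.7%) and 1 fell (median 0.23). *Cdkn1a*, a p53 target that halts the cell cycle, had 4.52 ± 0.50 (adjusted p = 8.07e-06) and *Mdm2*, the p53 ligase that free Rpl5 and Rpl11 bind, 0.80 ± 0.13 (adjusted p = 0.000167). *Hspa14* had 1.03 ± 0.19 (adjusted p = 0.000536), and the gene that fell was *Aamp*, at -0.48 ± 0.09 (adjusted p = 0.000971).

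Of 59 genes for ribosome assembly and RNA polymerase I, 8 rose (13.6%) and 4 fell between EtOH and PF livers (median 0.07). Between EtOH+MBV and PF+MBV livers 40 rose (67.8%, against 19.2% of all genes) and 2 fell (median 0.68). Between PF+MBV and PF livers, 0 rose and 11 fell (18.6%, against 1.03% of all genes, median -0.37). *Rrp12*, an assembly factor of both subunits, had a log2 fold change of 1.79 ± 0.22 between EtOH+MBV and PF+MBV livers (adjusted p = 3.75e-05) and -1.13 ± 0.22 between PF+MBV and PF livers (adjusted p = 0.0182). These comparisons share the PF+MBV libraries. The interaction passed for 12 of the 59 genes (20.3%, against 2.02% of all genes that were higher), all positive. The ribosomal protein genes had a median of -0.06 between PF+MBV and PF livers and -0.04 for the interaction.

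Of 32 regulators of translation, 6 rose (18.8%) and 4 fell between EtOH and PF livers (median 0.04). *Ddit4*, an inhibitor of mTORC1, had 2.77 ± 0.33 (adjusted p = 1.48e-05), *Sesn2*, another, 2.00 ± 0.33 (adjusted p = 0.000216), and *Eif4ebp1*, which holds back cap-dependent initiation, 0.93 ± 0.13 (adjusted p = 6.33e-05). *Deptor*, a protein of the mTOR complexes, had -0.56 ± 0.12 (adjusted p = 0.00213). Between EtOH+MBV and PF+MBV livers, 13 of the 32 regulators rose (40.6%, against 19.2% of all genes). There 5 fell (15.6%, against 16.7% of all genes), and the median was 0.20.

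**Figure D5:**
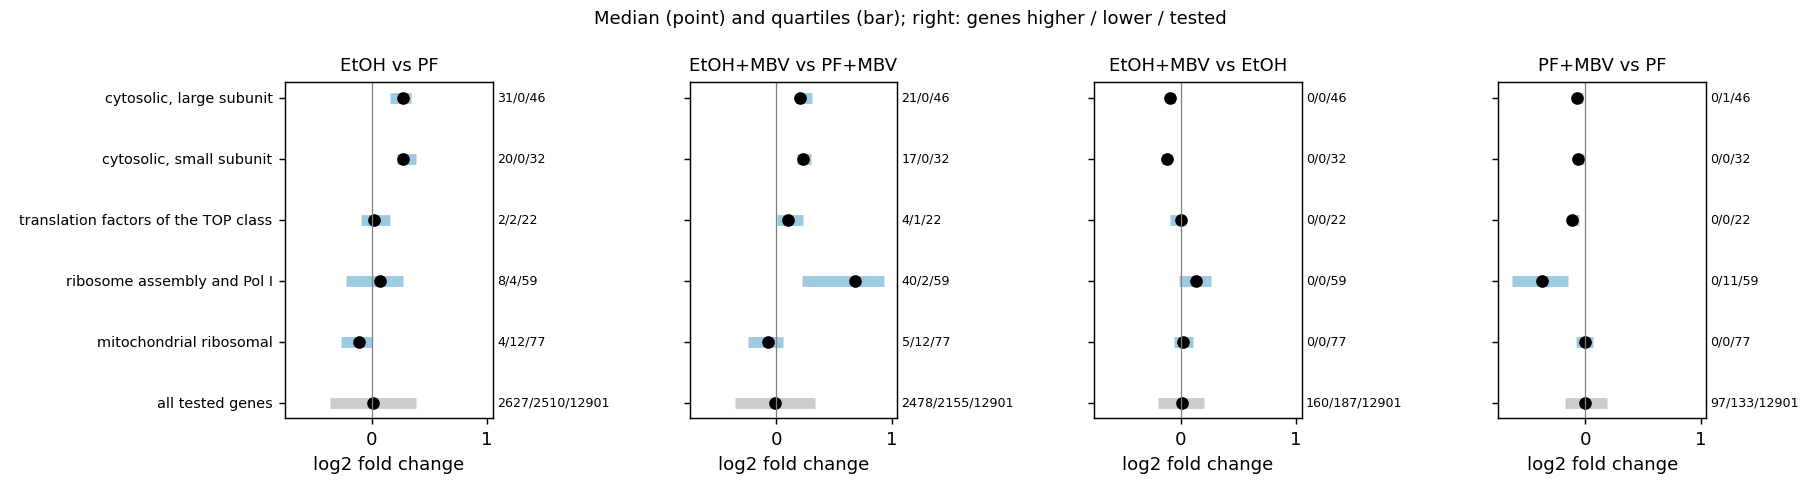
Median log2 fold change (point) and quartiles (bar) of gene groups in 4 comparisons, with genes higher, lower and tested at the right of each panel. Both subunits of the cytosolic ribosome have medians of 0.27 between EtOH and PF, while the assembly genes have 0.68 between EtOH+MBV and PF+MBV.

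Markers of other cells differed between the diets too. Among all genes, 20.4% were higher and 19.5% lower between EtOH and PF livers. For EtOH+MBV against PF+MBV livers these shares were 19.2% and 16.7%. Between EtOH and PF livers, 5 of 8 stellate cell markers rose and 1 fell, with a summed level of 214 to 359 CPM in EtOH and 223 to 234 CPM in PF livers. Of 8 liver endothelial markers 2 rose and 5 fell, with 352 to 421 CPM in EtOH and 419 to 497 CPM in PF livers. Of 6 markers of dividing cells 1 rose, with 22.9 to 132 CPM in EtOH and 32.6 to 37.1 CPM in PF livers. Of 8 Kupffer cell markers 1 rose and 0 fell, with 189 to 560 CPM in EtOH and 269 to 350 CPM in PF livers. Of 8 markers of monocytes and recruited macrophages 2 rose and 2 fell, with 29.9 to 112 CPM in EtOH and 42.3 to 54.5 CPM in PF livers. Hepatocyte markers summed to 88600 to 138000 CPM in EtOH and 93700 to 127000 CPM in PF livers. In mice given MBV, 3 of 8 hepatocyte markers rose and 0 fell, with 116000 to 126000 CPM in EtOH+MBV and 88600 to 105000 CPM in PF+MBV livers and no overlap. Of 8 endothelial markers 1 rose and 4 fell, with 365 to 490 CPM in EtOH+MBV and 452 to 496 CPM in PF+MBV livers. Of 8 Kupffer cell markers 2 fell, with 195 to 291 CPM in EtOH+MBV and 279 to 348 CPM in PF+MBV livers. Of 8 markers of monocytes and recruited macrophages 1 rose and 3 fell, with 27.4 to 42.9 CPM in EtOH+MBV and 46.5 to 49.4 CPM in PF+MBV livers. Of 8 stellate cell markers 0 rose and 1 fell, with 188 to 256 CPM in EtOH+MBV and 238 to 272 CPM in PF+MBV livers. Of 6 markers of dividing cells 0 rose and 1 fell, with 20 to 24.1 CPM in EtOH+MBV and 28.7 to 34.9 CPM in PF+MBV livers. No marker of these 6 lists had 0 reads in all 16 libraries. Of 6 erythroid markers 1 fell between EtOH and PF livers, with 3.58 to 31.3 CPM in EtOH and 87.4 to 158 CPM in PF livers, and the globins *Hba-a1*, *Hba-a2*, *Hbb-bs* and *Hbb-bt* had 0 reads in all 16 libraries. Of 4 adipocyte markers 1 fell, with 0 to 0.0967 CPM in EtOH and 5.77 to 19.3 CPM in PF livers, and *Lep* had 0 reads throughout. In mice given MBV 1 of the 4 also fell, with 0 to 0.255 CPM in EtOH+MBV and 3.28 to 66.3 CPM in PF+MBV livers. The part of these cells in the ribosomal protein results was not tested.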

How the data were processed

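For 16 libraries, polyadenylated RNA of mouse liver was sequenced on Illumina instruments, per the labels' protocols. The tools Trimmomatic and STAR and the build mm10 are named per the submitters' processing notes, with no version, setting or annotation. The deposited tables hold raw counts per gene, and the unstranded count column was used; 4 rows that name no gene were left out. Genes were kept by filterByExpr (minimum count 10; 12901 of 24411), scaled by TMM and fitted over all 16 libraries with edgeR 4.0.16 (quasi-likelihood, R 4.3.3), with Benjamini-Hochberg adjustment over all tested genes and 0.05 as the limit. DESeq2 1.42.0 and limma 3.58.1 were alternatives, as were other scalings, no filter, a replicate block and leaving out libraries. Library depth was 15271344 to 20493181 gene reads. A prior count of 2 was added for log2 CPM.

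The members and lists were chosen with earlier results of these data known. Members named are, per comparison, the 6 largest rises and falls that passed, the 3 highest and 3 lowest per length, the stalk proteins, *Rpsa* and the paralogues with the genes they resemble; *Rps10* is shown for its promoter. A few genes that meet this rule are not reported here. Other lists name up to 4 genes each, those with the smallest p between EtOH and PF livers. *Rrp12* is outside this rule and had the smallest p of its list between EtOH+MBV and PF+MBV livers. Positions are from an annotation of GRCm38.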

Additional observations from a re-analysis of the deposited data

Results flagged for a closer look

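*Rpl22* had 105.4 CPM in PF+MBV 3, above the other PF+MBV libraries at 92.53 to 94.71 CPM. The gap took 0.831 of the group's range, beyond Dixon's critical value for 4 libraries. Among 96 groups of libraries examined this was 1 flag, and chance gives about 1 in 20.

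For *Rpl7l1* the effect of MBV differed between the diets, with an interaction of 0.56 ± 0.15 on the log2 scale (adjusted p = 0.0469, edgeR's quasi-likelihood test). Its mean effect was positive in the ethanol diet, with 4 of 4 EtOH+MBV libraries above every EtOH library. In the pair-fed diet the libraries overlapped, and the call was lost in 13 of 16 fits that left out 1 library.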

How the results depend on the processing

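Scaling by total gene reads gave 7 genes higher and 2 lower between EtOH+MBV and PF+MBV, 0 lower between PF+MBV and PF and 0 higher for the interaction. With no filter, with limma voom and with the replicate block, 0 genes were higher for the interaction; DESeq2 gave 2, with 2 lower between EtOH+MBV and EtOH and 2 lower between PF+MBV and PF. Replicate numbers did not pair the libraries, since deviations from group means correlated at -0.12 to 0.17 over 24 pairs with the same number, 3 of them over 0.1, and 0 of 16 libraries correlated best with its own number. The replicate block gave 45 genes higher between EtOH and PF and 32 between EtOH+MBV and PF+MBV. Fitting the compared groups alone gave 21 genes higher between EtOH and PF and 49 between EtOH+MBV and PF+MBV. Leaving out 1 library at a time gave 33 to 63 higher and 0 to 1 lower between EtOH and PF, where the 1 was *Rpl7l1* without PF 2. It gave 23 to 40 higher and 0 lower between EtOH+MBV and PF+MBV, 0 to 1 higher and 0 to 2 lower between PF+MBV and PF, 0 to 1 higher for the interaction, and 0 in either direction between EtOH+MBV and EtOH. Without EtOH 1 and EtOH+MBV 1 together, 65 and 53 genes were higher in the diet comparisons. TMM factors from genes that are no ribosomal proteins, an alternative chosen after seeing the data, gave 52 and 39. The cause of these differences was not tested. No value that passed a test changed sign under the alternatives that were run; the median of the 78 genes for the interaction, -0.04 with all libraries, ran from -0.08 to 0.01 with 1 library left out and was 0.01 without EtOH 3. Scaling by total gene reads moved the median log2 fold change of the 78 genes to -0.21 between EtOH+MBV and EtOH, 0.08 between EtOH+MBV and PF+MBV and -0.22 for the interaction. Over combinations of a named gene, a comparison and an alternative, the added TMM factors apart, 62 lost a call, 18 gained one and 1921 kept their side; with those factors all 115 kept it. Of the 7 genes removed by the filter, *Rpl26* and *Rpl10l* had 0 reads and could not be tested under any setting; with no filter 83 genes were tested.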
